A study of Homo sapiens with 2 samples.

Results

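The genes described here are 9 transcription factors of the basic leucine zipper (bZIP) class: ATF4, its relatives ATF3 and ATF5, CHOP (gene symbol DDIT3) and the C/EBP genes CEBPA, CEBPB, CEBPD, CEBPE and CEBPG. They were taken from the array by gene symbol, and all 9 of the 9 were measured, each by 1 probe, out of 18377 genes with a probe of a single symbol. The set was selected on earlier differences between the same arrays, in which ATF4 and CEBPB had stood out, so the differences below are a description and carry no test. CEBPZ, whose symbol is also an old name of CHOP, is a separate gene and was kept out by its Entrez ID.

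The cells were K562, an established human leukaemia line driven by the fusion kinase BCR-ABL1. The 2 cultures were treated with imatinib, a BCR-ABL1 inhibitor, at 2 µM for 6 h. The culture with EPO was grown with erythropoietin, the cytokine of red cell formation. The culture without EPO is so named because its label mentions none and the protocol describes growth with and without it. The sources used here do not state the dose of EPO or the length of exposure. Each group is 1 Affymetrix Gene 1.0 ST array of 1 RNA sample, so nothing below has a replicate error, and untreated cells were not analysed here.

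bZIP factors bind DNA as dimers that are held together by a leucine zipper. ATF4 is the central factor of the integrated stress response: kinases phosphorylate the initiation factor eIF2 under stress, general translation drops, and the ATF4 message is translated more because of short reading frames upstream of its coding sequence. ATF4 then switches on genes of amino acid supply together with CHOP, ATF3, ATF5 and C/EBP partners. CEBPA, CEBPB and CEBPE drive granulocyte development, and BCR-ABL1 is known to hold back production of the CEBPA protein. The arrays measure RNA only.

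Short elements near the start sites were read from RefSeq promoters (GRCh38.p14, 250 bases before to 50 after a start site), which hold 8 of the 9 genes. The stretches shown are those where an element was found, and the capitals mark it. The first 3 come from the genes with the largest differences in the set and hold a TATAAA core of the TATA box at 27 (ATF4), 29 (CEBPB) and 30 (CEBPA) bases before a start site. CEBPG and CHAC1, a glutathione-degrading enzyme induced by ATF4 and CHOP, hold the C/EBP-ATF element TGATGCAA, which in CHAC1 is read on the opposite strand as TTGCATCA.
ATF4, chr22:39520520-39520549, plus strand: agagacgaagtcTATAAAgggccggcgggc
CEBPB, chr20:50190789-50190818, plus strand: acgggccgccctTATAAAtaaccgggctca
CEBPA, chr19:33302547-33302576, minus strand: cggcctgccgggTATAAAagctgggccggc
CEBPG, chr19:33374059-33374088, plus strand: ccgcgcggcgtcTGATGCAAcctgccggca
CHAC1, chr15:40953250-40953279, plus strand: cctcccctgccgTTGCATCActcctgccag

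Both strands of the 300-base windows were searched for 4 elements. TGATGCAA or its reverse lay in 0.866% of all 35116 promoters, the cAMP response element TGACGTCA in 1.85%, the C/EBP element ATTGCGCAA in 0.0228% and TATAAA, which was added after the values were seen, in 11.5%. Apart from the matches shown, the only match in the set was a TATAAA in ATF3 at 230 bases before a start site. A TATAAA on the gene's strand that begins 25 to 35 bases before the start site, where a TATA box usually sits, was present in 2.17% of promoters. In the set it was present in ATF4, CEBPA and CEBPB and in none of the other 5 genes with a promoter. Counted by gene instead of by promoter, 547 measured genes held it and 13663 with a promoter did not. A match of letters does not show that a factor binds there.

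The deposited values are deviations from a baseline that the authors set for each probe and did not describe, so they give no level of expression. They are read as log2. A difference is the value with EPO minus the value without EPO. Of the 9 genes, ATF4, CEBPB and CEBPA (3 genes) were lower by at least 2-fold, and 0 were higher by that much. Across all genes, 0.898% were at least 2-fold lower and 6.19% at least 2-fold higher. Because ATF4 and CEBPB helped to choose the set, the 3 of 9 is not independent of these percentages. The median difference of the 9 genes was -0.38, against -0.05 over all genes. The differences ran from -2.06 to 0.51, with 6 genes below 0 and 3 above, while 54.6% of all genes lay below 0.

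**Figure D1:**
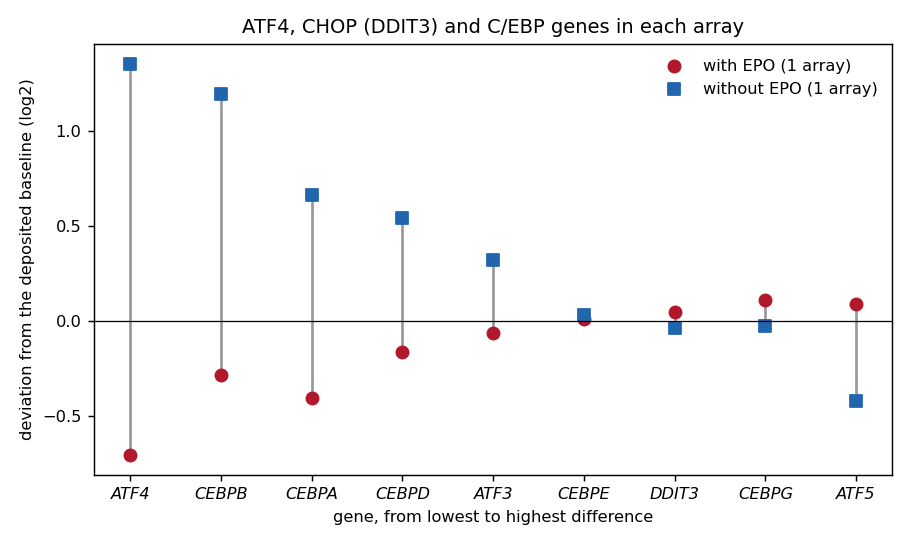
Deviation of each gene from the deposited baseline (log2, vertical axis) in the array with EPO (circles) and the array without EPO (squares), with genes from the lowest to the highest difference. ATF4 lay at -0.70 with EPO and 1.36 without, while the values of CEBPE, DDIT3 and CEBPG almost coincided.

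ATF4 had the lowest difference of the set. It lay at -0.70 with EPO and at 1.36 without EPO, a difference of -2.06, or 4.17-fold lower with EPO. The array without EPO was thus high and the array with EPO low. Both deviations were far out in their own array: with EPO, ATF4 was number 21 from the lowest of 18377 genes, and without EPO it was number 54 from the highest. Its difference was number 39 from the lowest. The places in the 2 arrays are not independent, because 83.1% of all genes had values of opposite sign. ATF4 also helped to choose the set by this difference. The standard deviation over genes was 0.128 with EPO and 0.429 without, and in these units ATF4 lay at -5.53 with EPO and at 3.16 without.

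The ATF4 relatives ATF3 and ATF5 lay on opposite sides of 0. ATF3, a stress-induced factor that can repress the genes ATF4 activates, lay at -0.06 with EPO and 0.32 without, a difference of -0.38 (1.30-fold lower). ATF5, which is itself translated under eIF2 phosphorylation and acts in the mitochondrial stress response, lay at 0.09 with EPO and -0.42 without, a difference of 0.51 (1.43-fold higher). ATF5 had the highest difference of the set and, at -0.42, the lowest deviation without EPO. Neither gene passed 2-fold.

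CHOP (DDIT3), a pro-apoptotic factor that dimerises with C/EBP proteins and is induced by ATF4, was almost equal in both arrays. It lay at 0.05 with EPO and -0.04 without, a difference of 0.09 (1.06-fold higher). That difference stood at percentile 60.9 of all genes, near the middle, whereas ATF4 stood at percentile 0.21.

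Among the C/EBP genes, CEBPB and CEBPA were past 2-fold and CEBPD was the next below them. CEBPB, which is induced by cytokines and stress and drives emergency granulocyte production, lay at -0.28 with EPO and 1.20 without, a difference of -1.48 (2.79-fold lower). Without EPO it was number 73 from the highest of all genes. CEBPA, the factor that commits progenitors to granulocytes, lay at -0.40 with EPO and 0.67 without, a difference of -1.07 (2.10-fold lower). In the array with EPO, CEBPA was farther below 0 than CEBPB and number 81 from the lowest, against number 217 for CEBPB. CEBPD, an acute-phase factor, lay at -0.16 with EPO and 0.54 without, a difference of -0.71 (1.63-fold lower), which did not pass 2-fold.

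The remaining C/EBP genes hardly differed between the arrays. CEBPE, which acts late in granulocyte maturation, lay at 0.01 with EPO and 0.03 without, a difference of -0.02. CEBPG, which lacks an activation domain and dimerises with the other C/EBP proteins and ATF4, lay at 0.11 with EPO and -0.02 without, a difference of 0.13 (1.10-fold higher). CEBPE is the only gene of the 9 whose values lay on the same side of 0 in both arrays. This opposition is general in the table, where 83.1% of all genes had values of opposite sign.

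**Figure D2:**
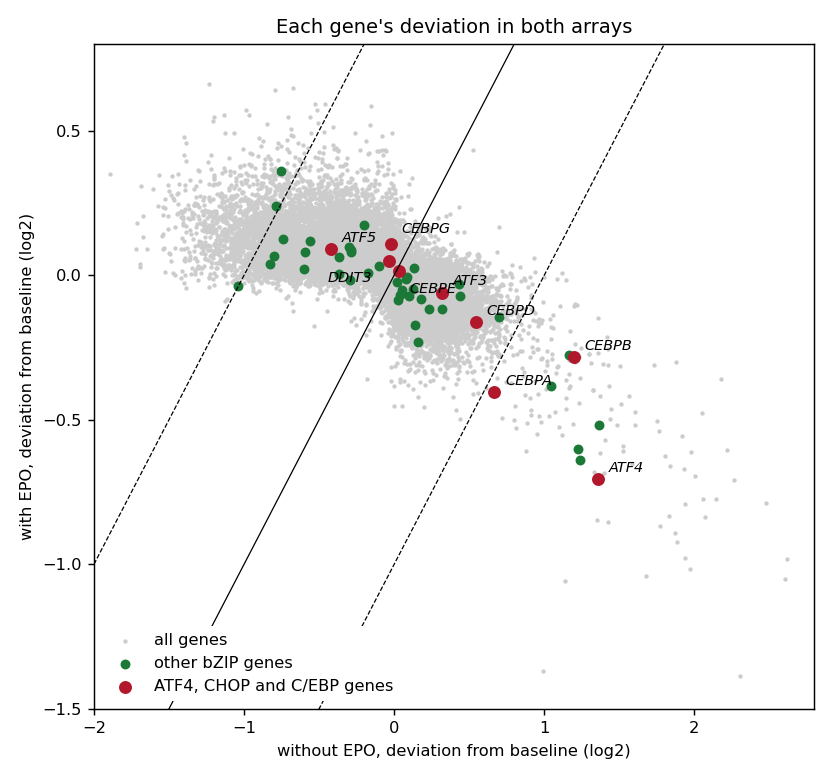
Deviation without EPO (horizontal axis, log2) against deviation with EPO (vertical axis, log2) for all 18377 genes (grey), other bZIP genes (green) and the 9 genes (red, named). The solid line marks equal values and the dashed lines a 2-fold difference; ATF4, CEBPB and CEBPA lie to the right of the lower dashed line.

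The order of the differences does not depend on a constant shift between the arrays, but the 2-fold counts do. Cellular machinery genes (242 genes, such as proteasome, mitochondrial ribosome and spliceosome subunits) had a median difference of 0.44, and silent families (482 genes, such as olfactory receptors) had a median of -0.33. With the machinery median subtracted, 4 of the 9 were at least 2-fold lower, since CEBPD moved to -1.15, and CHOP and CEBPG turned to -0.35 and -0.31. With the silent median subtracted, 2 of the 9 were, since CEBPA moved to -0.74, and CEBPE turned to 0.31. ATF4 and CEBPB stayed past 2-fold under both, at -2.50 and -1.92 with the machinery median subtracted and at -1.73 and -1.15 with the silent median subtracted. As deposited, both lay below every one of the machinery genes. With the median of all genes subtracted, CEBPE turned to 0.03 and the 3 genes past 2-fold were the same.

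**Figure D3:**
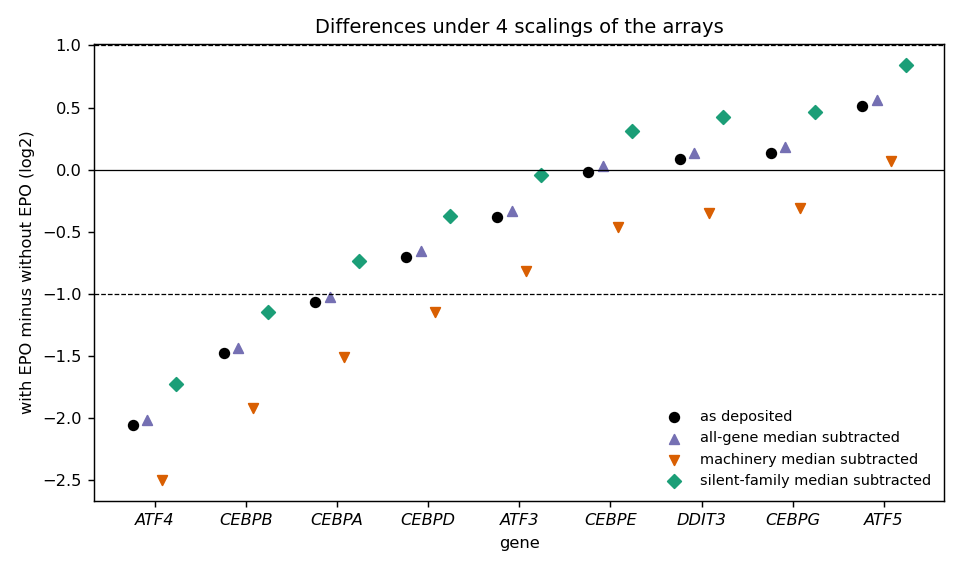
Difference of each gene (with EPO minus without EPO, log2) as deposited and with the median of all genes, of machinery genes or of silent families subtracted. Dashed lines mark 2-fold; ATF4 and CEBPB lie below the lower line under all 4 scalings, and CEBPA and CEBPD cross it.

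The wider bZIP class was used to place the set, with 41 of 45 other listed bZIP genes measured. In the EPO array 5 of them were lower by 2-fold or more and 3 higher by 2-fold or more, against 0.898% lower and 6.19% higher among all genes. The median difference of -0.09 turned to 0.24 with the silent median subtracted, and the higher count went from 3 to 8 there and to 0 with the machinery median subtracted. ATF4 and CEBPB helped to choose the set by this same difference, so their places in the class are not independent of the choice. The list of other bZIP genes was also written with earlier results of these data known. ATF4 had the lowest difference of all 50 bZIP genes, CEBPB was number 5 and CEBPA number 8. The lower genes between them were the AP-1 subunits JUNB at -1.88, JUN at -1.88 and FOSB at -1.83, and, named after their values were seen, FOS at -1.44 and JUND at -1.43. The 3 higher genes were the NRF-type factors NFE2L3 at 1.12, NFE2L1, a regulator of proteasome genes, at 1.03 and NFE2L2, the regulator of antioxidant genes, at 1.00. XBP1, the factor of the IRE1 arm of the unfolded protein response, stood at 0.87 and ATF6 at 0.13, both also named after their values were seen. The placed TATAAA was first noticed in ATF4, CEBPB and CEBPA, so only the bZIP genes outside the set are counted here. It was present in 5 of these, of which 3 were at least 2-fold lower (JUNB, FOSB and FOS), and absent from 31, of which 2 were, a count made after the values were seen and without a test.

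**Figure D4:**
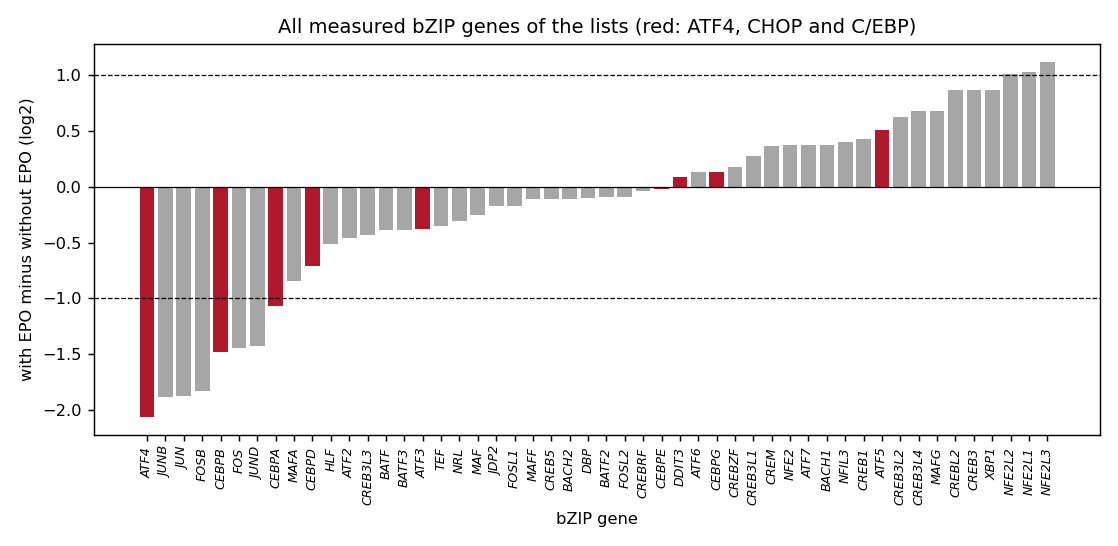
Difference (with EPO minus without EPO, log2) of the 50 measured bZIP genes in increasing order, with the 9 genes in red and dashed lines at 2-fold. ATF4 is the lowest at -2.06, and the NRF-type factors NFE2L2, NFE2L1 and NFE2L3 are the highest.

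The genes whose pair of values was nearest to a member, by Euclidean distance over the 2 arrays, differed between members. Nearest to ATF4 were the small nucleolar RNAs SNORA52 (distance 0.033, difference -2.01) and SNORD14E (distance 0.044, difference -2.08) and the histone gene H3C1 (distance 0.092, difference -1.99). Nearest to CEBPB were SNORA41 (distance 0.016), FOS (distance 0.033) and the histone gene H2AC12 (distance 0.036), with differences from -1.50 to -1.44. Only 10 genes lay within a distance of 0.2 of ATF4 and 38 within 0.2 of CEBPB. CHOP instead lay in the dense middle, with 6405 genes within 0.2. Its nearest genes were BDP1, SNRNP35 and PLEKHM3, with differences of 0.088, 0.090 and 0.089. Nearness over 2 arrays says only that the pairs of values were alike.

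Upstream of ATF4, the genes of eIF2 signalling mostly had differences of the opposite sign, as did the machinery genes, whose median was 0.44. The 4 eIF2 kinases all had positive differences, with a median of 0.71, and PERK alone turned negative with the machinery median subtracted. PKR (EIF2AK2), which senses double-stranded RNA, lay at 0.09 with EPO and -1.07 without, a difference of 1.16 (2.24-fold higher). GCN2 (EIF2AK4), the sensor of amino acid shortage, stood at 0.86, and HRI (EIF2AK1), the haem-regulated kinase of red cell precursors, at 0.57. PERK (EIF2AK3), the kinase of the endoplasmic reticulum, was nearly equal in both arrays at 0.04. As deposited 1 of the 4 kinases was past 2-fold, beside 6.19% of all genes higher. With the machinery median subtracted 0 of the 4 kinases were, at a median of 0.27. With the silent median subtracted 2 were, at a median of 1.05.

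Of 14 genes for eIF2, its exchange factor eIF2B, the eIF2 phosphatase and their regulators, 3 passed 2-fold upward with EPO and 0 downward, and the median was 0.58, beside 6.19% of all genes upward. With the machinery median subtracted 0 passed 2-fold and the median was 0.14, and with the silent median subtracted 6 did, at a median of 0.91. The 3 as deposited were OMA1, the mitochondrial protease that relays stress to HRI, at 1.11, the eIF2 alpha subunit gene EIF2S1 at 1.11 and the PERK inhibitor DNAJC3 at 1.08. PPP1R15A (GADD34), the phosphatase subunit that ATF4 and CHOP induce, stood at 0.09, and its constitutive counterpart PPP1R15B at -0.12. Both were named after their values were seen.

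Most known targets of ATF4 and CHOP had differences of the opposite sign to the ATF4 message, as did the machinery genes. Of 44 measured targets, 8 were higher with EPO by at least 2-fold and 1 was lower by that much, beside 6.19% and 0.898% of all genes, and the median was 0.65. With the machinery median subtracted 2 were higher and 1 lower, at a median of 0.21, and with the silent median subtracted 22 were higher and 0 lower, at a median of 0.99. The highest were ERO1A, the oxidase of protein folding that CHOP induces, at 1.58 (2.99-fold higher), the proline synthesis enzyme ALDH18A1 at 1.54 (2.90-fold higher) and the serine synthesis enzyme PHGDH at 1.40 (2.64-fold higher). CHAC1 was the lower gene. It lay at -0.02 with EPO and 1.15 without, a difference of -1.16 (2.24-fold lower). The baseline is not described, so these values do not show which culture changed. The standard deviation over all genes was 0.429 without EPO and 0.128 with EPO. TRIB3, a pseudokinase induced by ATF4 and CHOP, lay at 0.30 with EPO and -0.51 without, a difference of 0.81, and the asparagine synthetase ASNS stood at 0.72, both named after their values were seen. The other 5 past 2-fold were the tRNA synthetases EPRS1 and WARS1, the one-carbon enzyme MTHFD2, the serine enzyme PSPH and the arginine transporter SLC7A1, between 1.07 and 1.35.

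The C/EBP-ATF element gave no common direction among the targets. It was found in the promoters of 7 of the 34 targets with a promoter, or 14.6% of their 48 promoters. Of these 7, CHAC1 was lower as above and FGF21 stood at -0.10. The other 5 had positive differences, which were 0.18 for IARS1, 0.48 for SLC1A5, 0.61 for CARS1, 0.62 for AARS1 and 0.82 for HERPUD1.

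**Figure D5:**
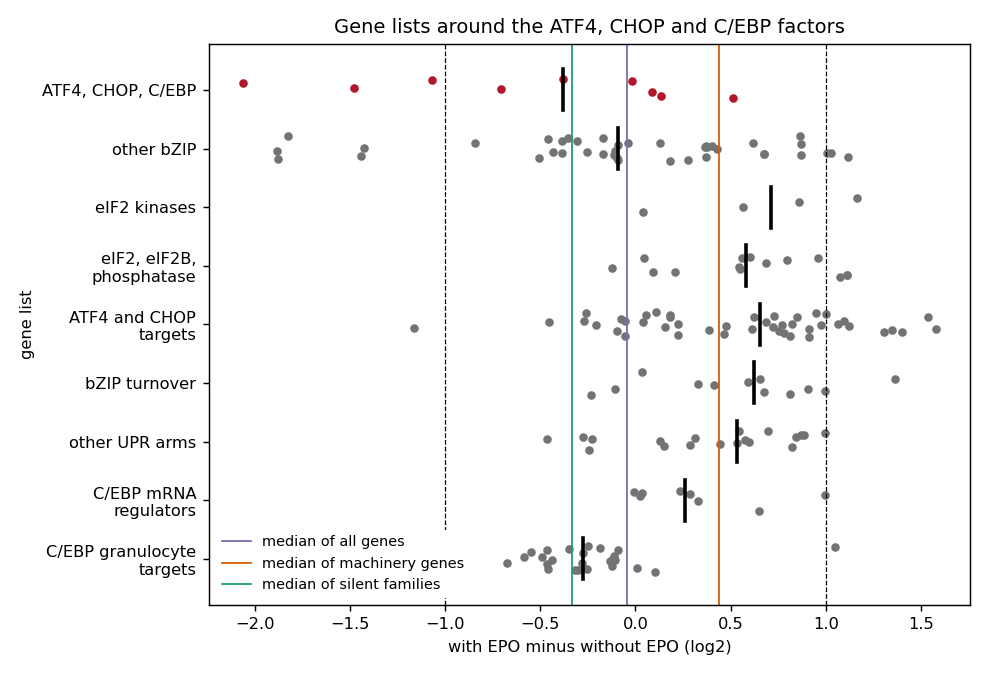
Difference of each measured gene (points; with EPO minus without EPO, log2, horizontal axis) in the set and in 8 lists of related genes, with black bars at list medians, coloured lines at the medians of all genes, machinery genes and silent families, and dashed lines at 2-fold. The targets of ATF4 and CHOP lie mostly to the right of 0, with a median of 0.65, and the granulocyte targets of C/EBP factors to the left, with a median of -0.28.

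As deposited, most genes that act on the stability and translation of the factors were within 2-fold, as were most of all genes. Of 12 genes of bZIP protein turnover, BTRC, the ubiquitin ligase subunit that marks ATF4 for degradation, was the 1 gene past 2-fold, higher with EPO at 1.36 (2.57-fold), and the median was 0.62. This 1 of 12 stands beside 6.19% of all genes, and the count was 0 with the machinery median and 5 with the silent median subtracted. Of 8 regulators of C/EBP messages, 0 were past 2-fold, beside 0.898% lower and 6.19% higher among all genes. The median of the 8 turned from 0.26 to -0.18 with the machinery median subtracted. With the silent or the all-gene median subtracted 1 passed 2-fold. HNRNPK stood at 1.00 (1.99-fold) and PCBP2, the RNA-binding protein that blocks CEBPA translation in BCR-ABL1 cells, at 0.65. In the other arms of the unfolded protein response 0 of 19 genes were past 2-fold, with a median of 0.53. In lists this short, a count of 0 is close to the shares of all genes (0.898% lower and 6.19% higher). The largest differences were 1.00 (1.99-fold) for the chaperone HYOU1 and 0.89 for the protease MBTPS2. With the silent median subtracted 6 of the 19 were higher by at least 2-fold (median 0.87), with the all-gene median 1 was, and with the machinery median 0 were (median 0.09).

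The granulocyte and monocyte genes that C/EBP factors activate had a median difference of -0.28 over 24 genes, with 21 of 24 below 0. Of all genes 54.6% lay below 0, and the silent families had a median of -0.33. Past 2-fold, 0 of the 24 were lower and 1 was higher, the lysozyme gene LYZ at 1.05. These counts stand beside 0.898% lower and 6.19% higher among all genes. The median of the 24 genes turned to 0.05 with the silent median subtracted. With the machinery median subtracted 2 were lower by at least 2-fold and 0 higher. The genes with the lowest differences were the neutrophil proteases PRTN3 at -0.68 and ELANE at -0.59, named after their values were seen.

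The measured neighbours of ATF4, CEBPB and CEBPA had differences between -0.17 and 0.23. The gene on the other side of ATF4 and of CEBPB was not measured. By gene order in RefSeq (GRCh38.p14), RPS19BP1 beside ATF4 stood at 0.12, PTPN1 beside CEBPB at 0.23 and SLC7A10 beside CEBPA at -0.17. CEBPG is the other neighbour of CEBPA on chromosome 19 and stood at 0.13. The transcript CEBPA-DT, which starts next to CEBPA on the opposite strand, lay at -0.14 with EPO and 0.35 without, a difference of -0.49. SPIDR beside CEBPD had almost the same pair of values as CEBPD, at -0.16 with EPO and 0.55 without. Over the 11 measured neighbours outside the set, the median was 0.23, with 0 at least 2-fold lower and 1 higher, SLC7A8 beside CEBPE at 1.11. These counts stand beside 0.898% lower and 6.19% higher among all genes, and in a list of 11 genes they are close to such shares. Whether neighbours share a difference was not tested.

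The identity of the cells cannot be checked on levels, because the values are centred. Erythroid markers, which K562 cells are known to express, had a median difference of 0.63 over 13 measured genes. Of these, 3 were at least 2-fold higher, beside 6.19% of all genes. The medians of other cell types were -0.13 for 8 megakaryocyte, -0.23 for 9 lymphoid and -0.04 for 10 stromal and epithelial markers, and EPCAM, at 1.25, was the only gene of these 3 lists past 2-fold. Their part in the differences of the 9 genes was not tested.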

How the data were processed

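RNA of 2 K562 samples was hybridised to 1 array each, per the labels' protocols. The deposited table holds 28869 probes in values read as log2 deviations from a baseline. The labels and the table name no background correction, normalization, software or log base (not given in the sources used here). Probes were named through the platform annotation, with symbols updated by Entrez ID through RefSeq (19279 of 19310 probes with a single symbol matched). Another 1752 probes had several symbols and 7807 had none, and neither kind was used. Averaging the probes of each gene gave 18377 genes. With 1 array a group there is no test, and precision is limited by the number of arrays. Genes past a difference of 1 (2-fold) were counted. The set, the lists and the rule for named genes (all members, all eIF2 kinases, in each list the genes past 2-fold or, beyond 6, the top 3 each way, or the top 2 if none is, and the 3 nearest genes) were chosen with earlier results of these data known. The counting was tested on simulated data with known changes, which checks its arithmetic and not the error between the arrays. A filter on low values needs levels and was not possible, and protein sequences were not analysed here. Python 3.11.15, NumPy 2.4.6, pandas 2.3.3 and matplotlib 3.10.9 were used.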

Additional observations from a re-analysis of the deposited data

How the results depend on the processing

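The 3 genes at least 2-fold lower with EPO (ATF4, CEBPB, CEBPA) were the same after subtraction of the all-gene median. Of the 11 alternatives, the 4 scalings of the arrays are those that could turn a direction, and ATF4, CEBPB, CEBPA, CEBPD, ATF3 and ATF5 kept theirs under these 4. The rules for probes could not change a value of the 9 genes, each measured by 1 probe. The count was 1 (ATF4) with a 3-fold rule, 4 (with CEBPD) with a 1.5-fold rule, and, in settings added after the data were seen, 4 with values read as natural logarithms and 5 (with ATF3) as log10, where ATF5 was the 1 higher gene. The median of the 9 genes was -0.33 with the median of all genes, -0.82 with the machinery median and -0.047 with the silent median subtracted. Over all genes, 978 were lower and 144 higher with the machinery median subtracted, 101 and 2812 with the silent median, 854 and 3333 with a 1.5-fold rule, 68 and 67 with a 3-fold rule, 477 and 2646 as natural logarithms and 3930 and 5384 as log10, and 255 were lower with probes of several genes included. Dividing each array by its standard deviation gives no fold and so no count, and it turned only CEBPE. No replicate could be left out, and no paired analysis was possible because each group has 1 array.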

Other observations

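The placed TATAAA, noticed first in ATF4, CEBPB and CEBPA, was counted over all measured genes with a RefSeq promoter. Of 547 genes that hold it, 22 (4.02%) were lower with EPO by at least 2-fold and 10 (1.83%) higher by that much, with a median difference of -0.19. Of 13663 genes without it, 51 (0.373%) were lower and 959 (7.02%) higher, with a median of -0.01. The 22 include ATF4, CEBPB and CEBPA, in which the pattern was noticed. Without genes that carry histone symbols, 15 of 515 (2.91%) were lower and the median was -0.19. Without the bZIP genes, but with the histone genes, 16 of 539 (2.97%) were lower. Each group was left out alone, so the 15 still include bZIP genes. The share without both groups was not counted and would be smaller than either. These are counts in 1 pair of arrays, with no test.

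The separate gene CEBPZ, which shares an old name with CHOP, lay at 0.29 with EPO and -0.83 without, a difference of 1.13, whereas CHOP stood at 0.09.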
